A study of Schizosaccharomyces pombe with 6 samples.

Results

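The centromeres of fission yeast (Schizosaccharomyces pombe) and the 100 kb on either side of each were examined in lists of regions called from calibrated ChIP-seq. The windows run from 100 kb before to 100 kb after the PomBase centromere intervals, which are chrI:3753687-3789421, chrII:1602264-1644747 and chrIII:1070904-1137003. A called region was a member when at least 1 bp of it lay in a window. This gave 259 of the 3896 regions in the 3 lists: 223 of 3535 in the list of the strain without a tag, 23 of 299 for Pli1-12Pk and 13 of 62 for Nse2-12Pk. The places that the tagged lists left uncalled, here called gaps, were members too. Of these, 20 of 296 for Pli1 and 10 of 59 for Nse2 lay in the windows.

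The study compared 3 strains grown in the rich medium YES to log phase: one without a tag, one carrying Pli1-12Pk and one carrying Nse2-12Pk. Every culture was mixed with budding yeast cells carrying Ku70-cMyc as a calibrator, fixed with formaldehyde and subjected to anti-Pk immunoprecipitation, the untagged strain included. Each strain had 1 ChIP library and 1 input, so there are no replicates and no test was made between strains. The sources used here do not say how the tags were introduced or how deeply the libraries were read. Intervals on shares cover counting error only and count each gene or summit as separate, which genes under 1 peak are not.

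A fission yeast centromere has a central core carrying the histone variant CENP-A, where the kinetochore forms, and outer arms of dg and dh repeats packed in heterochromatin through RNA interference and the protein Swi6. Clusters of tRNA genes stand in and beside the centromeres, and some act as boundaries of that heterochromatin. Pli1 is a PIAS-family SUMO ligase whose loss is known to weaken centromeric silencing, and Nse2 is the SUMO ligase subunit of the Smc5/6 complex, a relative of cohesin that acts in DNA repair.

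The stretches printed here carry the results below, each read on the plus strand from the RefSeq ASM294v3 genome, whose sequence names match those of the lists. The first pair holds tRNA genes at Pli1 summits, a summit being the position of highest signal in a region. They are chrII:1618293-1618513, from SPBTRNAILE.06 to SPBTRNAALA.09, and chrIII:1106327-1106557, from SPCTRNAARG.13 to SPCTRNAASP.07, with the tRNA genes in capitals. The next, chrIII:1079543-1079663, is centred on the untagged centromere peak of highest score, with the summits of all 3 lists in capitals. The last shows a repeated element missing from the tagged lists at some of its copies, chosen after its values were seen. It is chrIII:1123637-1123898, a Pli1 gap with the bases also missing from the Nse2 list in capitals.
Ile-Ala tRNA pair: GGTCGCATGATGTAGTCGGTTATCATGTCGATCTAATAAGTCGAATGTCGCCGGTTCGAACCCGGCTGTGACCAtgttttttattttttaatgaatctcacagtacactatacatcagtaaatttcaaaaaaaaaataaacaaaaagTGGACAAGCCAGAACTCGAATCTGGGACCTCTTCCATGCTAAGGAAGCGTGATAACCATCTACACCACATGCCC
Arg-Asp tRNA pair: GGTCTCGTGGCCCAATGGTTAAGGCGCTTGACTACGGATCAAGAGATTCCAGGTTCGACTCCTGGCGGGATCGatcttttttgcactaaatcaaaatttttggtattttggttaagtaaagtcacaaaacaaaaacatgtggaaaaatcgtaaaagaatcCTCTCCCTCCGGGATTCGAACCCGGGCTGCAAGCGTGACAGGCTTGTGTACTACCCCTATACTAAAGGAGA
Highest untagged summit: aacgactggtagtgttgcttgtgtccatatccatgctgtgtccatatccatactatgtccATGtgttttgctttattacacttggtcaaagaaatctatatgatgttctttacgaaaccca
Gap element: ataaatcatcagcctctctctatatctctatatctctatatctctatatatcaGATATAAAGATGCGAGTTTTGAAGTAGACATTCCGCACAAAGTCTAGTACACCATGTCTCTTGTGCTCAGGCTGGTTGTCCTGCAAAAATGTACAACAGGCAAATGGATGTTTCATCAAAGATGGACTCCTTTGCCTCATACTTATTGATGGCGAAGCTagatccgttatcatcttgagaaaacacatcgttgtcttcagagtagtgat

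The untagged list marked the centromeres at about the density of the rest of the genome, but unevenly. Its peaks numbered 28.4 per 100 kb in the centromeres, 30.7 in the flanks and 28.0 in the rest of the genome. They covered 15.7% of centromere bases, 19.9% of flank bases and 18.7% of the rest. The 6 flanks ranged from 16.0% to 22.5%. Among 234 bins of 50 kb outside the windows, coverage ran from 6.54% to 35.5% with a median of 18.3%, so all 3 centromeres and all 6 flanks lay inside that range.

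The 3 centromeres differed from one another. Centromere I was touched by 7 untagged peaks that covered 11.2% of it. Centromere II had 10 peaks and 12.4% coverage. Centromere III, which is also the longest at 66100 bp, had 24 peaks and 20.2% coverage. Per 100 kb these were 19.6, 23.5 and 36.3 peaks. Of the 234 bins, 20 were covered no more than centromere I, 28 no more than centromere II and 148 no more than centromere III. One library was measured, and whether the order of the centromeres repeats between cultures was not tested.

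**Figure D1:**
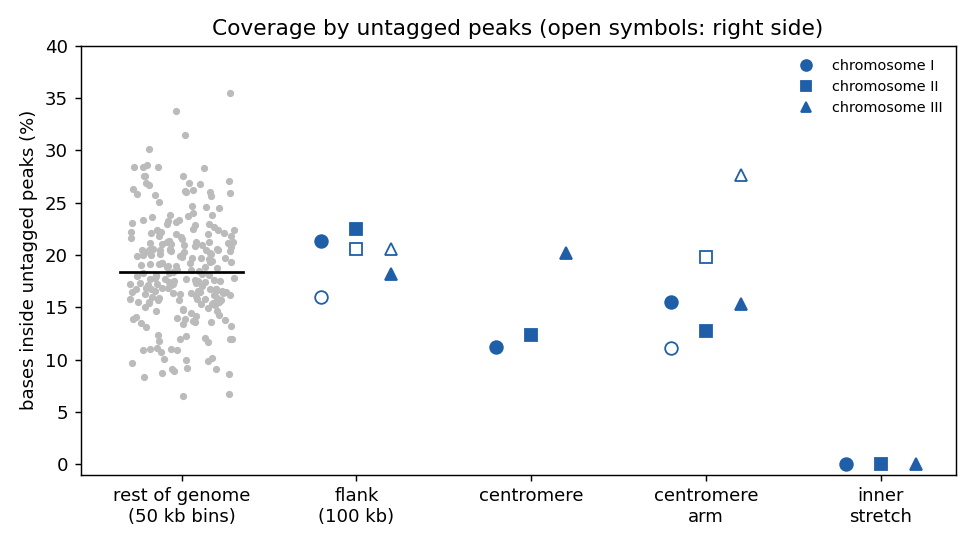
Percent of bases inside untagged peaks (vertical axis) in 234 bins of 50 kb outside the windows (grey points, line at the median of 18.3%), the 6 flanks, the 3 centromeres, their arms and their inner stretches. Symbols give the chromosome and open symbols the right side; the inner stretches are at 0 and the right arm of centromere III is at 27.7%.

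Peak scores followed the same order. The score is the authors' whole number on a p-value track, with no stated scale, and it ranks peaks only within a list. Its median was 160 at centromere I, 197 at centromere II and 277 at centromere III, against 144.5 over the flanks and 128 over the rest of the genome. Single flanks had medians from 118 to 172.5, a range that holds the value of centromere I. Within centromere III the 7 peaks of the left arm had a median score of 690 (379 to 1306), and the 17 peaks of the right arm 179 (77 to 584). The right arm was the more densely marked, with 49.7 peaks per 100 kb and 27.7% coverage against 27.7 peaks and 15.3% on the left arm. Among the 100 highest scores of the untagged list, 4 were centromere peaks, all in centromere III, and 4 were flank peaks. That is 4 of 41 centromere peaks and 4 of 182 flank peaks, in a list of 3535 peaks.

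**Figure D2:**
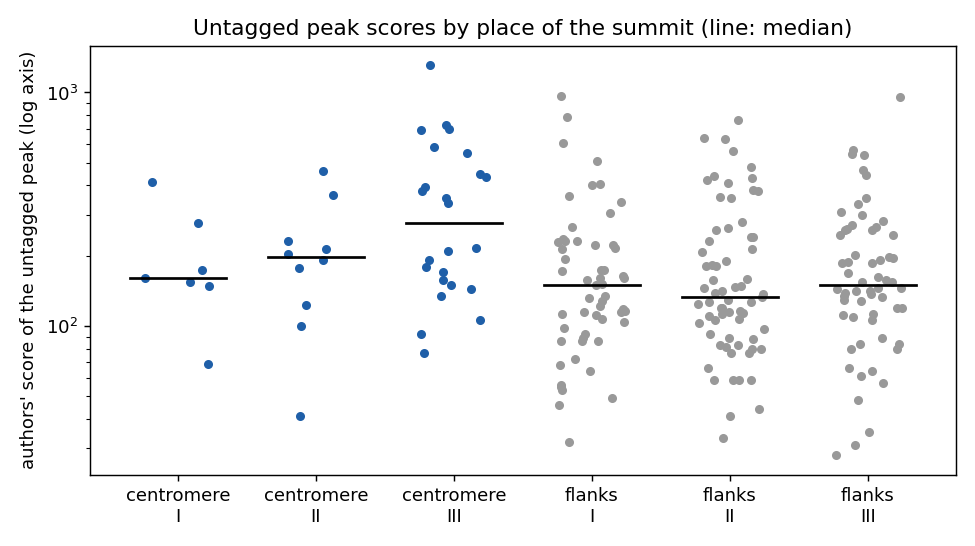
Authors' score of each untagged peak (log axis) with its summit in a centromere (blue) or in the flanks (grey) of each chromosome, with the median as a line. Centromere III has the highest score, 1306, and the scores of all 6 places overlap.

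The highest centromere peak had its summit at chrIII:1079603 with a score of 1306, rank 10 in the list, where the long non-coding RNA genes SPNCRNA.7194 and SPNCRNA.7192 overlap. Its sequence is the third of those printed above. The next were at chrIII:1082264 in SPNCRNA.7192 (score 725), chrIII:1075623 in SPNCRNA.7189 (700) and chrIII:1088584 in SPNCRNA.7201 (690). The fifth, with a score of 584, was at the tRNA gene SPCTRNAARG.13, and the sixth was in SPNCRNA.7193 with 551. The remaining 4 of the 10 highest were at chrII:1610617 in nam6 and SPNCRNA.5257 (461), in SPNCRNA.7214 (449) and SPNCRNA.7224 (435) of centromere III, and at SPNCRNA.3688 of centromere I (413). So 8 of the 10 were in centromere III, and 9 of the 10 summits lay in long non-coding RNA genes.

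Most of the annotation inside the centromeres is non-coding RNA. Of 110 long non-coding RNA genes there, 47 were touched by an untagged peak, which is 42.7% (33.3 to 52.5, exact Clopper-Pearson 95% interval). The share was 37.3% in the flanks (131 of 351) and 32.4% over the whole genome. By centromere it was 11 of 25, 14 of 37 and 22 of 48 genes for I, II and III. Of the 41 untagged centromere summits, 37 lay inside such a gene, beside 51% of all untagged summits. These genes take up 67.4% of centromere bases and 47.7% of the genome. Genes overlap here and the lists have no strand, so a peak cannot be assigned to 1 of a pair.

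Nearly all of this sequence is repeated, which bears on every value from the centromeres. Of centromere bases, 90.4% start a 50-base word that occurs elsewhere in the genome, against 2.34% in the flanks and 3.13% in the rest. The share was 93.7% at centromere I, 78.5% at II and 96.4% at III. Of the 41 untagged centromere peaks, 30 lay where every 300-base word is repeated, against 0 of 182 flank peaks. Per the file headers, reads were mapped uniquely to S. pombe, and whether that means 1 position in the genome or only the fission yeast genome rather than the calibrator's is not explained. How far reads shared between copies set the calls was not tested.

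No untagged peak touched the centre of any centromere. Between the innermost pair of tRNA genes for 1 amino acid on opposite strands, the inner stretch measured 5546 bp in centromere I, between SPATRNAILE.03 and SPATRNAILE.04. It measured 9902 bp in centromere II, between SPBTRNAVAL.06 and SPBTRNAVAL.07, and 6623 bp in centromere III, between SPCTRNALEU.12 and SPCTRNALEU.13. All 41 untagged peaks lay in the arms outside these pairs, at 33.5 per 100 kb of arm, and the 22071 bp of inner stretch held 0. The tagged lists also had no summit and no gap there, and both covered 100% of it.

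The peak-free stretch ran past the tRNA pair on both sides. It was 15590 bp long at centromere I, 20077 bp at centromere II and 12356 bp at centromere III. Among the 3532 stretches between neighbouring untagged peaks these ranked 23, 8 and 75 by length. The inner stretch was the least repeated part of each centromere. Bases starting a repeated 50-base word made up 81.5% of it in I, 30.2% in II and 69.7% in III. The left and right arms had 95.5% and 96.3% in I, 94.1% and 92.1% in II, and 98.7% and 99.8% in III. The inner stretches were also the richest in A and T, at 71.9% against 67.2% in the arms and 63.9% in the flanks; the part of base composition in the missing peaks was not tested.

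**Figure D3:**
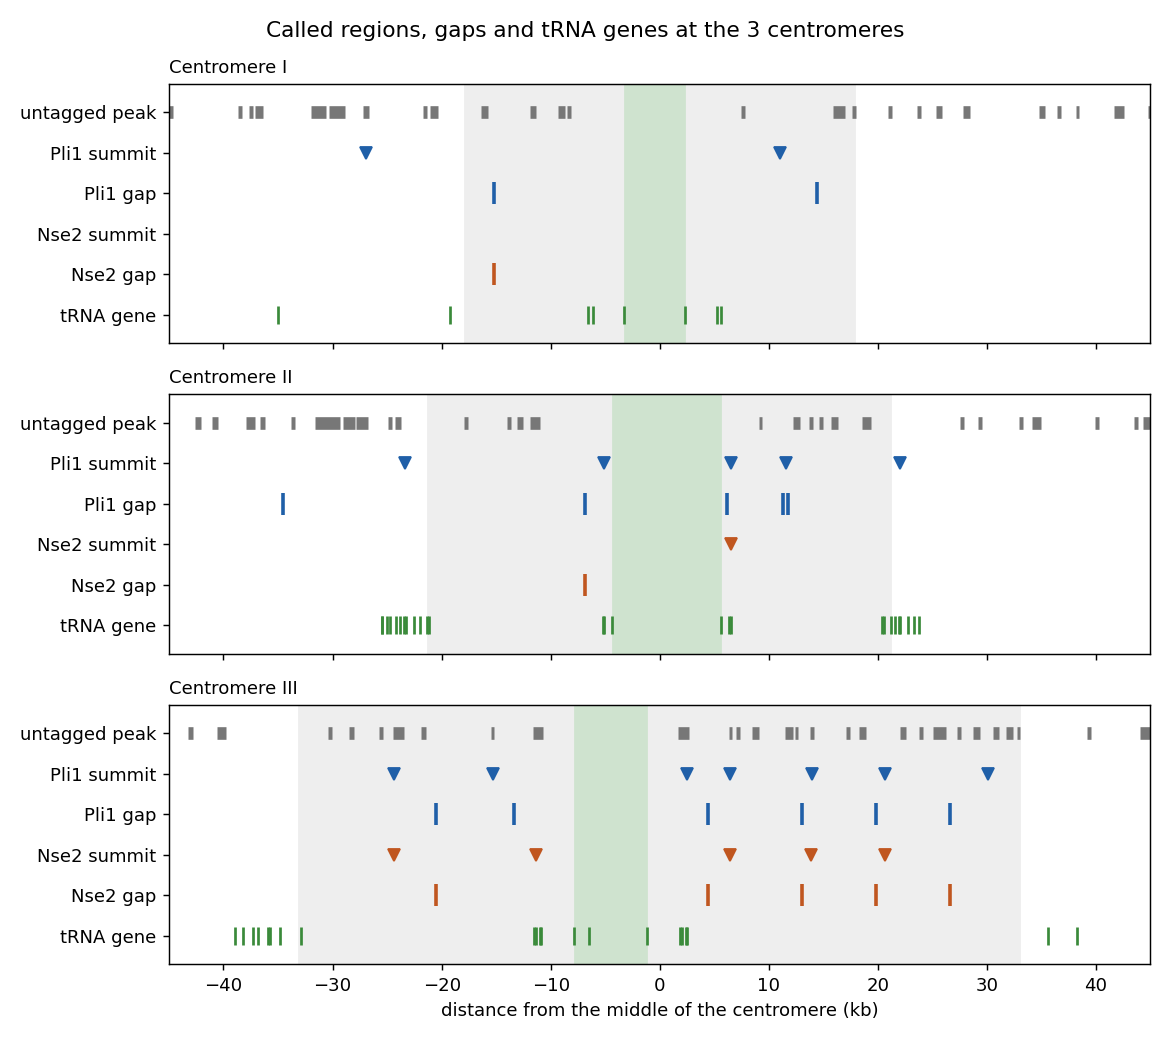
Untagged peaks (grey bars), summits (triangles) and gaps (ticks) of the tagged lists and tRNA genes (green ticks) by distance in kb from the middle of each centromere. Grey shading marks the centromere and green the inner stretch, which holds 0 untagged peaks, 0 tagged summits and 0 gaps in all 3.

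The tagged lists are of another kind. Both called nearly everything, so a region is the stretch between 2 gaps, and its summit is the single highest position of that stretch. Pli1 regions covered 97.8% of centromere bases, 99.6% of flank bases and 99.3% of the rest. Nse2 regions covered 99.0%, 99.8% and 99.8%. In the centromeres 15 Pli1 regions and 10 Nse2 regions were present, 6 of each reaching into a flank. Because a stretch has 1 summit, a place without a summit is not a place without signal.

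Of the 23 Pli1 members, 11 had the summit in a centromere, 11 in a flank and 1 beyond the windows. For Nse2 these were 6, 4 and 3 of 13. Centromere III held 7 of the Pli1 summits and 5 of the Nse2 summits, centromere II held 3 and 1, and centromere I held 1 and 0. The flanks of chromosome III held none of either list, since 1 region of each list ran across each of them.

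Tagged summits in the centromeres and flanks lay in untagged peaks about as often as the rest of their lists. Inside untagged peaks lay 5 of 11 Pli1 centromere summits, 45.5% (16.7 to 76.6), and 6 of 11 flank summits, beside 56.2% over all 299 Pli1 regions. For Nse2 the counts were 4 of 6 in the centromeres and 3 of 4 in the flanks, beside 66.1% over all 62 regions.

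The highest summit of the centromeres was shared by all 3 lists. At the highest untagged peak, in SPNCRNA.7194, the untagged summit was at chrIII:1079603, the Nse2 summit at 1079604 and the Pli1 summit at 1079605. Its Nse2 score was 31404, rank 7 of 62, and its Pli1 score 11678, rank 17 of 299. In the printed sequence the 3 summits are the neighbouring capitals. The bases there have 9 copies in the genome, all in the centromeres, where a copy is a place sharing at least 50% of the 31-base words of the 201 bp around the summit.

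Of the 6 Nse2 centromere summits, 5 had a Pli1 summit within 100 bp, as did 2 of 4 in the flanks and 56.5% over the Nse2 list. In the other direction, 5 of 11 Pli1 centromere summits and 2 of 11 flank summits had an Nse2 summit that near, beside 11.7% over the longer Pli1 list. The whole lists hold 299 Pli1 and 62 Nse2 summits, and the centromeres 11 and 6. These Pli1 shares therefore cannot be compared directly. The distances were 1 bp at SPNCRNA.7194, 1 bp at SPNCRNA.7212, 22 bp at SPNCRNA.7217, 55 bp at SPNCRNA.7222 and 7 bp at SPBTRNAILE.07. At SPNCRNA.7212 the Nse2 summit was at chrIII:1110386 (score 9137) and the Pli1 summit at 1110385 (3524), with an untagged summit 17 bp from the Nse2 one. At SPNCRNA.7217 the Nse2 score was 7077 and the Pli1 score 3013, and an untagged summit lay 7 bp from the Nse2 one. At SPNCRNA.7222 the scores were 8042 and 2882, and the nearest untagged summit was over 1 kb away, at 1872 bp from the Nse2 one.

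The other Pli1 centromere summits outside tRNA genes were at SPNCRNA.7201 (chrIII:1088642, score 4665), SPNCRNA.7229 (chrIII:1134061, 3628), SPNCRNA.3684 (chrI:3782576, 2749) and SPNCRNA.5270 (chrII:1635062, 288). The first lay 58 bp from an untagged summit. The other 3 were outside untagged peaks, and the last was in a region only 369 bp long between a pair of gaps. Of all centromere summits, 8 of 11 for Pli1 and 4 of 6 for Nse2 lay inside long non-coding RNA genes, which fill 67.4% of centromere bases. Over the genome 42.1% of Pli1 and 35.5% of Nse2 summits lay in them. The centromere ones were all 8 Pli1 and all 4 Nse2 summits away from tRNA genes. Each of these had between 6 and 11 copies in the genome, while every flank summit of both lists away from tRNA genes had 1.

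Untagged peaks and tagged summits fell at overlapping sets of tRNA genes, by unlike measures. For the untagged list a peak had to touch the gene, and for the tagged lists a summit had to lie within 200 bp. Tagged regions cover nearly every base, so their touching a gene says little. The centromeres hold 28 tRNA genes, 6 in I (alanine, glutamate and isoleucine), 10 in II and 12 in III. Those of II are for isoleucine, alanine, valine, tyrosine, leucine, glycine and aspartate, and those of III for lysine, aspartate, arginine, valine, threonine, leucine and glutamate. Untagged peaks touched 8 of the 28, which is 28.6% (13.2 to 48.7), beside 3 of 33 in the flanks, 2 of 110 in the rest and 7.6% of all 171. By centromere the counts were 0 of 6, 0 of 10 and 8 of 12.

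The 8 touched genes form a pair of mirrored clusters in centromere III, each with 1 gene for aspartate, arginine, valine and threonine, and each under 1 untagged peak. The peak over SPCTRNAASP.06, SPCTRNAARG.12, SPCTRNAVAL.09 and SPCTRNATHR.08 had a score of 394. The peak over SPCTRNATHR.09, SPCTRNAVAL.10, SPCTRNAARG.13 and SPCTRNAASP.07 had a score of 584. The lysine gene, the pair of leucine genes and the glutamate gene of the same centromere were not touched. The 8 genes are thus 2 peaks, and the 2 clusters share sequence, so they are not 8 separate observations.

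Pli1 had summits at tRNA genes in both centromere II and centromere III. A tRNA gene stood within 200 bp of 3 of its 11 centromere summits, 27.3% (6.02 to 61.0), with 2 of 11 in the flanks, 14 of 277 elsewhere and 6.35% over the list. Genes for tRNA are denser in the centromeres, with 28 in 144319 bp, against 33 in 600000 bp of flank and 110 in 11827501 bp of the rest. The share of bases within 200 bp of a tRNA gene was not measured, so a preference for these genes cannot be read from the summit shares. The centromere summits were at SPBTRNAILE.06 (chrII:1618392, score 7950), SPBTRNAILE.07 (chrII:1630030, 6567) and SPCTRNAARG.13 (chrIII:1106422, 6816). The flank ones were at SPBTRNAILE.05 (chrII:1600187, 7149) and SPBTRNAILE.08 (chrII:1645523, 7179). All 5 ranked between 24 and 37 of 299.

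The 4 places on chromosome II are copies of 1 sequence. The 221 bp from the isoleucine to the alanine gene, printed above, are 100% identical at all 4, and each copy held a Pli1 summit. Counted from the first base of the isoleucine gene, the Pli1 summit was at base 102, 100, 93 and 100 for SPBTRNAILE.05, SPBTRNAILE.06, SPBTRNAILE.07 and SPBTRNAILE.08. These bases lie in the AT-rich spacer between the genes, shown in lower case. Nse2 had a summit at 1 of the 4, at base 100 of the SPBTRNAILE.07 copy (chrII:1630023, score 10399), and the untagged list had a peak at none. The 4 summits cannot be counted as 4 independent sites.

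The arginine and aspartate pair of centromere III behaved otherwise. Its 231 bp, printed above, occur as a mirrored copy on the other arm, 100% identical. On the right arm, at SPCTRNAARG.13, the Pli1 summit was at base 96 and the untagged summit at base 101, counted from the first base of the arginine gene. On the left arm, at SPCTRNAARG.12, the Nse2 summit (chrIII:1092611, score 16184, rank 20 of 62) was at base 57, inside the gene, and the untagged summit at base 91. Thus Pli1 and Nse2 had their summits at opposite copies. A single region of each list spanned both copies and could therefore hold only 1 summit.

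Nse2 had 2 of 6 centromere summits within 200 bp of a tRNA gene, 0 of 4 in the flanks and 0 of 52 elsewhere, 3.23% over the list. The higher density of tRNA genes in the centromeres bears on these shares too. The tRNA genes of centromere I had no summit of either tagged list within 200 bp and no untagged peak. The nearest Pli1 summit to any of its 6 genes was 5311 bp from SPATRNAALA.05.

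The B-box is the inner promoter element of tRNA genes, read by the transcription factor TFIIIC. It was searched on both strands as GTTCNANNC, a simplified form of its consensus. The arginine and aspartate genes printed above held 1 match each. The isoleucine gene held 1 site, which matched on both strands, and the alanine gene held 0. Among tiles of 221 bp over the genome 7.19% held a match, and 7.49% of those of 231 bp. Away from tRNA genes the 201 bp around a centromere summit held a match at 2 of 8 Pli1 and 2 of 4 Nse2 summits, against 6.54% of tiles of that length. The summits of a pair of Nse2 and Pli1 share bases, so these counts are not separate. The tiles cover the whole genome, and the share of matches in the repeated sequence of the centromeres was not measured.

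Gaps of the tagged lists were denser in the centromeres than in the flanks or the rest. Pli1 left 12 gaps there, 8.31 per 100 kb, against 8 gaps or 1.33 per 100 kb in the flanks and 2.33 in the rest. Nse2 left 7, which is 4.85 per 100 kb, against 3 gaps or 0.5 per 100 kb in the flanks and 0.414 in the rest. Of the 234 bins outside the windows, 3 had at least as many Pli1 gaps per 100 kb as the centromeres together, and 3 at least as many Nse2 gaps. For Pli1 these were 25 bins against centromere I alone, 3 against II and 3 against III, and for Nse2 they were 5, 5 and 2. Centromeres I and II, at 35735 and 42484 bp, are shorter than a bin, so the same number of gaps gives them a higher rate. Their 1 Nse2 gap each gave 2.80 and 2.35 per 100 kb, above any bin with 1 gap. Of the 234 bins 205 had 0 Nse2 gaps, so the Nse2 counts for I and II depend on this difference in length. The Pli1 gaps measured 160 to 441 bp, 3164 bp in all, and the Nse2 gaps 159 to 280 bp, 1466 bp in all. No centromere or flank gap of either list touched an untagged peak, and over the genome 0.338% of Pli1 gaps and 0% of Nse2 gaps did.

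**Figure D4:**
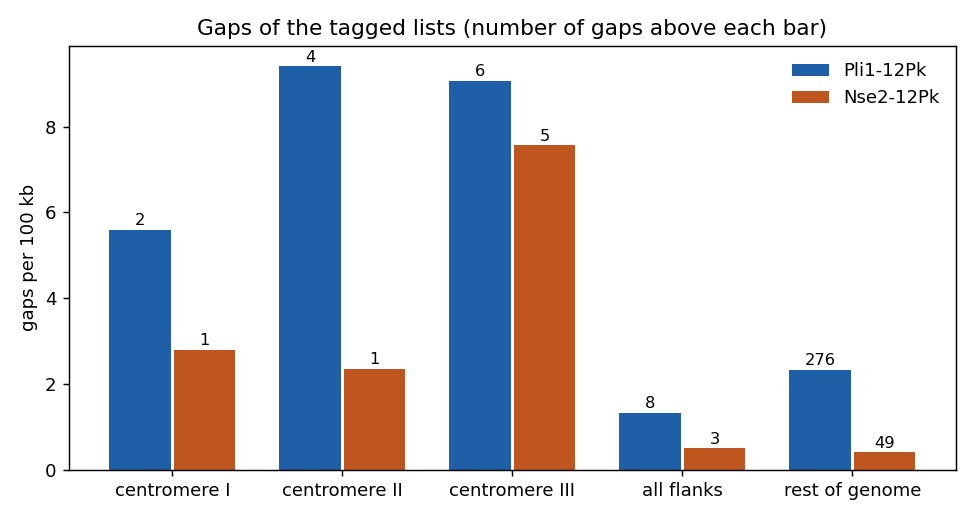
Gaps per 100 kb of the Pli1-12Pk (blue) and Nse2-12Pk (orange) lists in each centromere, in all flanks and in the rest of the genome, with the number of gaps above each bar. Both lists have more gaps per 100 kb in each centromere than in the flanks or the rest. The only Nse2 gap of centromere II holds a run of unread reference bases, where no read can be placed.

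By centromere, Pli1 left 2, 4 and 6 gaps in I, II and III, and Nse2 left 1, 1 and 5. Each of the 7 Nse2 gaps touched a Pli1 gap, beside 83.1% over the genome, and 7 of the 12 Pli1 gaps touched an Nse2 gap, beside 15.9%. Over the genome there were 296 Pli1 gaps and only 59 Nse2 gaps, so fewer Pli1 gaps could have an Nse2 partner. The Pli1 shares of centromere and genome therefore cannot be compared directly. In the centromeres 77.4% of the Pli1 gap bases and 70.4% of the Nse2 gap bases started a repeated 50-base word, beside 90.4% of the centromeres as a whole. In the flanks 0% of the gap bases of either list did. A word holding an unread base (N) of the reference counted as not repeated, which lowers the share in gaps with such bases. Those centromere gaps had 55.1% and 55.4% for Pli1 and 38.9% and 40.2% for Nse2. Whether the gaps are less repeated than the centromeres as a whole therefore cannot be read from these shares.

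In each list, 2 centromere gaps held a run of 100 unread bases (N) of the reference, at chrII:1616571-1616670 and chrIII:1083349-1083448, where no read can be placed. The reference has 4 such runs in all, and all 4 lay in gaps of both lists. Without the gaps at these runs Pli1 left 10 gaps with 2498 bp and Nse2 5 gaps with 973 bp in the centromeres. The gap at the chromosome II run was the only Nse2 gap of centromere II, so without it that list had no gap there.

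The printed gap element lay in tandem on the right arm of centromere III. Pli1 gaps started at chrIII:1116880, 1123637 and 1130398, spaced by 6757 and 6761 bp, inside SPNCRNA.7217, SPNCRNA.7222 and SPNCRNA.7227. Nse2 gaps started at 1116919, 1123690 and 1130449, spaced by 6771 and 6759 bp, each within the Pli1 gap. The 159 bp in capitals above, missing from both lists at that place, have 10 copies in the genome, of which 6 are exact. Gaps lay at 3 of the 6 exact copies. The other 3, at chrI:3763638-3763796, chrI:3778477-3778635 and chrIII:1137210-1137368, had none. Identical bases were thus called at 1 copy and not at another.

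On the right arm of centromere III the Pli1 summits at SPNCRNA.7217 and SPNCRNA.7222 stood 6753 bp apart and the Nse2 summits 6720 bp apart. The next intervals on that arm were longer, at 7485 bp from SPNCRNA.7212 to SPNCRNA.7217 and 9438 bp from SPNCRNA.7222 to SPNCRNA.7229 for Pli1 and 7462 bp from SPNCRNA.7212 to SPNCRNA.7217 for Nse2. A further Pli1 interval on that arm, from SPCTRNAARG.13 to SPNCRNA.7212, was shorter at 3963 bp. A further pair of Pli1 gaps was in centromere II, at chrII:1629530-1629781 near SPBTRNAALA.10 and at chrII:1635231-1635390 in SPNCRNA.5270, and neither touched an Nse2 gap.

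The flanks are ordinary gene-bearing sequence. Untagged peaks touched 143 of their 262 protein-coding genes, 54.6% (48.3 to 60.7), beside 54.3% over the genome. The share was 45 of 91 genes on chromosome I, 49 of 89 on II and 49 of 82 on III. None of the 5 LTRs there, remnants of retrotransposons, was touched, as for all 238 LTRs of the genome (0%). In steps of 20 kb from the centromere edge, coverage ran from 11.2% to 37.7%, with both ends of that range beside chromosome II's centromere, 37.7% in the first 20 kb on its left and 11.2% in the first 20 kb on its right.

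Among the 10 highest untagged peaks of the flanks were those at the genes of 2 glycolytic enzymes. The highest were at pma1, the proton pump of the plasma membrane (963), at vid21, a subunit of the NuA4 acetyltransferase, beside sws2 (955), and at pyk1, pyruvate kinase (782). Then came the ribosomal protein gene rpl802 (759), the aldolase gene fba1 (638) and the meiosis-blocking kinase gene pat1 (631). The last 3 were SPNCRNA.7136 beside rrk1, the RNA of RNase P (565), the ribosomal protein gene rpl26 (559) and the DEAD-box helicase gene sum3 (547).

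Pli1 summits in the flanks were highest at nam1 (8527), followed by the 2 isoleucine tRNA genes above, SPNCRNA.3728 (6845), the chaperone gene hsp90 (4246) and pyk1 (4066). Then came the ribosomal protein gene rpl1002 (3122), ppi1 (2420), arp9, an actin-related subunit of chromatin remodellers (1976), and mug124 (997). The eleventh, at SPNCRNA.944, scored 360. Nse2 had its flank summits at pyk1 (20433), fba1 (16920), sua1, the sulfate adenylyltransferase gene (11949), and SPNCRNA.944 (852).

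At pyk1 the 3 summits again fell together, with the untagged one at chrI:3845469, the Nse2 one 3 bp away and the Pli1 one 23 bp away. At fba1 and sua1 the Nse2 summits were 4 bp and 1 bp from an untagged one. At SPNCRNA.944 the Nse2 and Pli1 summits were 64 bp apart and outside untagged peaks, in a short region between a pair of gaps that both lists shared.

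The flank gaps were few. The 5 longest were the Pli1 gaps at chrII:1684777-1685287 near mug124 (511 bp), chrI:3877824-3878143 near SPNCRNA.3729 (320 bp) and chrII:1588812-1589110 near SPNCRNA.1450 (299 bp), and the Nse2 gaps at chrI:3877763-3878137 (375 bp) and chrI:3876521-3876808 (288 bp). Of 3 Nse2 flank gaps 2 touched a Pli1 gap, both on the right of centromere I. The flanks of chromosome III and the left flank of chromosome I had no gap in either list.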

How the data were processed

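Chromatin of 3 strains was precipitated with an antibody against Pk, and the lists of called regions of the 3 ChIP libraries were analysed; the 3 inputs were not analysed on their own. The deposited score is the authors' whole number per region, called on a p-value track of reads mapped uniquely to S. pombe, per the file headers. Tools named in the submitters' processing notes are cutadapt, Bowtie2, SAMtools and MACS3, with no versions, and the build sacCer3 is the calibrator's. The sources used here give neither read depth, the calling threshold nor the scale of the score, so scores were ranked only within a list. The 3 columns for fold, p and q hold 0 and were not used. The fission yeast build is not stated; sequence names and versions match ASM294v3, and positions count from 1.

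Overlap (1 bp), coverage, gaps and words repeated on either strand were computed in Python 3.11.15 with NumPy 2.4.6 and tested on simulated data. Exact intervals came from SciPy 1.17.1, sequences were aligned with Biopython 1.88 and figures drawn with Matplotlib 3.10.9. Samples were grouped by their titles. The members, lists and tests were chosen with earlier results of these data known. By rule the text names features at tagged summits in centromeres, the 10 highest flank summits and untagged peaks per place, all centromere gaps, the 5 longest flank gaps and all centromeric tRNA genes. The inner stretch, the repeated gap element and the eleventh Pli1 flank summit were added after values were seen. Of the features under this rule, 1 gene and some gaps are not reported here one by one.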

Additional observations from a re-analysis of the deposited data

How the results depend on the processing

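Of 35 alternatives over 10 results, 26 stayed within the limit set for them (1.5 times for counts and lengths) and 9 passed it. Within the limit for counts, the 15 Pli1 regions became 10 for those lying inside by 50% or more and 11 by summit. Merging regions within 500 bp left 3 Pli1 and 3 Nse2 regions touching centromeres, 1 per centromere, and 0 bp of gap in either list, since no centromere gap is longer than 441 bp. The Nse2 count of 10 regions fell to 4 for regions lying inside by 50% or more and to 6 for regions assigned by summit; 6 of the 10 run on into a flank. Leaving out the gaps with unread bases, an alternative chosen after seeing the data, lowered the Nse2 gap length from 1466 to 973 bp. The share of Pli1 gap bases in repeated sequence was 81.4% with 36-base words and 64.9% with 100-base words, against 77.4%. Words holding an unread base counted as not repeated. Untagged peaks touching centromeres ranged from 30 to 46, and their coverage from 14.4% to 16.4%. No paired analysis was possible because each strain has 1 ChIP library and no test was made. Unknown depth limits what a missing call shows: a place outside a list is not shown to lack signal.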
